A study of Mus musculus with 35 samples.

Results

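Resident Kupffer cells (ResKCs) of mice fed the standard diet (SD) were described at 2 times, 12 and 24 weeks after the start of the diet, in 13 of the 35 bulk RNA-seq samples of the study. The samples were taken by their labels, 7 ResKC samples on the SD at 12 weeks and 6 ResKC samples on the SD at 24 weeks, and no measured value was used to choose them. The study followed hepatic macrophages (macs) of C57Bl/6J mice that received a western diet (WD) or the matched SD, which contains corn starch, and it sorted them on the lectin CLEC4F and the phosphatidylserine receptor TIM4. Per the methods of the study, male mice started the diets at 5 weeks of age, so that they were 17 and 29 weeks old at the 2 times, and neither group carried a transgene or received another treatment by its labels. The comparison asks how far the transcriptome of CLEC4F+TIM4+ ResKCs moves in the absence of fatty liver disease. Age and time on the diet went together and cannot be told apart.

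ResKCs are the macs of the liver sinusoids. They arise mainly from embryonic precursors, renew themselves in place, and need CSF1 together with signals from sinusoidal endothelial cells, stellate cells and hepatocytes. They clear bacteria, complement-coated particles, aged red blood cells and dying cells from the blood, which requires scavenger and complement receptors, lysosomal enzymes and the handling of heme iron and cholesterol. The transcription factors LXRα, ID3 and SPIC are part of their identity.

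The total counts were alike at both times, from 13144846 to 14848994 at 12 weeks and from 13499403 to 14729952 at 24 weeks, at which 3 counts equal 0.202 to 0.228 CPM (counts scaled to the library total) and 0.204 to 0.222 CPM. The filter for genes over 1 CPM in at least 5 of the 35 samples left 13421 genes. The 12-week sample 7 stood apart from the other 12-week samples. It had the lowest score for immediate-early and heat-shock genes (-1.97, the mean of log2 CPM centred per gene) and the highest for hepatocyte genes (2.13). Its value on the first principal component, which held 24.6% of the variance, was 63.9. The 12-week sample 3 lay at the other end of this component, at -56.8, and had the lowest hepatocyte score (-1.99). Some counts over all genes, and several values that sample 7 moved, are also given without sample 7. The labels do not name the mice, and the text of the study counts replicates as animals. A supplementary legend of the study gives 5 or 6 mice for each sorted population, while 7 samples carry the SD 12-week label. Whether each sample is 1 mouse is therefore not settled, and n counts samples here. Samples 1 to 3 at 12 weeks and all 6 samples at 24 weeks carried alignment names of a first form, and samples 4 to 7 at 12 weeks those of a second. What the 2 forms stand for is not given in the sources used here.

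The sorted cells carried the genes that name them. Clec4f, the lectin used in the sort, was behind only Apoe and Ctsb by mean CPM, with values from 14198 to 15770 CPM at 12 weeks and from 12316 to 15743 CPM at 24 weeks. Timd4, which encodes the other sort marker TIM4, ran from 948 to 1358 CPM with a median of 1060 CPM at 12 weeks, and from 885 to 1127 CPM with a median of 1051 CPM at 24 weeks. The 2 times overlapped for both genes. The log2 fold change of Clec4f was -0.05 with a 95% interval from -0.70 to 0.60, and that of Timd4 was -0.09 with an interval from -0.69 to 0.51. These intervals took their spread from all 6 groups, including CLEC4F- macs. In a fit of the 13 SD samples alone the interval for Clec4f ran from -0.18 to 0.06 and that for Timd4 from -0.28 to 0.08.

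The most abundant transcripts of steady-state ResKCs encoded a lipid carrier, lysosomal proteases, complement C1q, antigen presentation and the sort lectin itself. Apoe, which encodes the apolipoprotein of cholesterol transport, led with 20023 to 26280 CPM at 12 weeks and 15337 to 22372 CPM at 24 weeks, and the 2 ranges overlapped. Its log2 fold change was -0.21, with an adjusted p of 0.668 in edgeR's quasi-likelihood test. In the fit of the 13 SD samples alone the interval for Apoe ran from -0.42 to -0.02, with an adjusted p of 0.552. Ctsb, the lysosomal protease cathepsin B, followed with 16225 ± 840 CPM (SD, n = 7) at 12 weeks and 17407 ± 1955 CPM (n = 6) at 24 weeks. After Clec4f came Actb, Tmsb4x, Cd74, Lyz2, Slc40a1, Csf1r and Cd5l. Among these, Slc40a1 encodes ferroportin, the exporter of iron, and Csf1r the receptor on which mac survival depends. The rest of the 25 were C1qb, H2-D1, Itm2b, C1qc, Ctsc, Fth1, Sdc3, Psap, C1qa, B2m, Gpx1, H2-Ab1, Grn, CT010467.1 and Ly6e. Together these 25 genes held 19.7% ± 0.70 of all counts at 12 weeks and 19.9% ± 0.68 at 24 weeks.

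**Figure D1:**
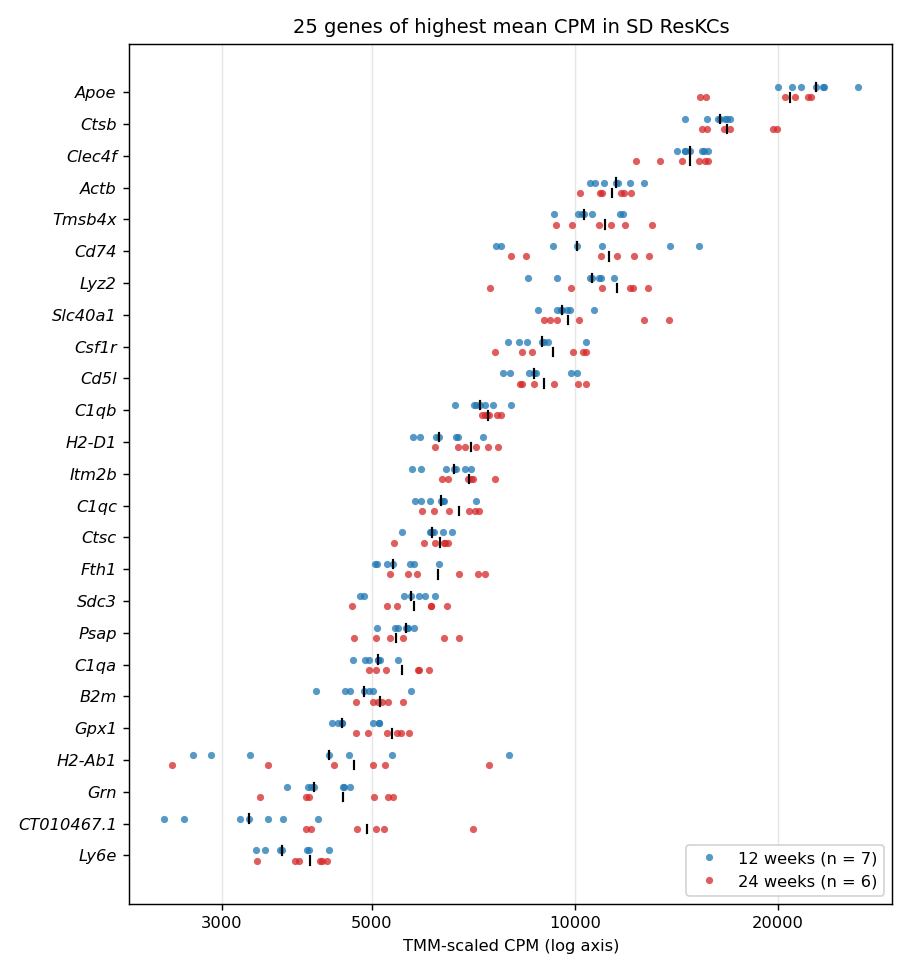
Each row is a gene among the 25 with the highest mean over the 13 samples, and the horizontal axis gives TMM-scaled CPM on a log scale, with points for single samples at 12 weeks (n = 7) and 24 weeks (n = 6) and a bar for each median. The points of the 2 times lie over each other in nearly every row, and those of H2-Ab1 spread widest, from 2720 to 8002 CPM at 12 weeks.

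The order of the abundant genes was kept between the times. Of the 25 genes with the highest mean CPM at 12 weeks, 24 were also among the 25 at 24 weeks. The shared number was 95 of 100, 482 of 500 and 955 of 1000 for longer lists. CT010467.1, an annotated ribosomal RNA, entered the 25 by moving from rank 30 to rank 22, with 2462 to 4165 CPM at 12 weeks and 4002 to 7066 CPM at 24 weeks. The gene for cathepsin S, Ctss, left the 25 by moving from rank 24 to rank 27. The log2 fold change of CT010467.1 was 0.62 and its adjusted p in edgeR's quasi-likelihood test was 0.218. The mitochondrial ribosomal RNA mt-Rnr2 was likewise higher in mean at 24 weeks, with 1837 to 3474 CPM against 3198 to 4336 CPM, a log2 fold change of 0.50 and an adjusted p of 0.379. Across genes, Spearman's rho between the means at the 2 times was 0.995, which is a description, since genes are not replicates.

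Levels of different genes can be compared once they are divided by exon length. Per kb, Apoe stood at 10590 ± 950 CPM (SD, n = 7) at 12 weeks and 9142 ± 1506 CPM (n = 6) at 24 weeks. Lyz2, the lysozyme of macs, had 7851 ± 771 and 8298 ± 1506 CPM per kb, so that its order with Apoe at 24 weeks lay within the spread of the samples. C1qb, 1 of the 3 chains of C1q, stood at 6707 ± 400 and 6885 ± 178 CPM per kb. Clec4f was at 6067 ± 240 and 5852 ± 555 CPM per kb, near Cd74, the invariant chain of MHC class II, which ranged more widely at 6375 ± 1738 and 6367 ± 1190 CPM per kb. C1qa had 4856 ± 233 and 5300 ± 457 CPM per kb. Cd5l, the secreted scavenger protein AIM, stood at 4341 and 4516 CPM per kb, with C1qc at 3262 and 3447 and the complement receptor gene Vsig4 at 2530 and 2651. Tmsb4x, B2m, Wfdc17, Actb, Gpx1, Ctss, Ctsb, H2-D1, Ftl1, Itm2b, Fcna, Tyrobp, mt-Rnr2 and Psap were also among the 25 highest per kb. Gm23935 and Mir6236 reached this list through very short annotated exons, and their level per kb says little of an abundance. Even so, genes of complement, lysosome and antigen presentation stayed near the top on both scales.

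Between 12 and 24 weeks, 0 of the 13421 genes (0%) passed an adjusted p of 0.05 in edgeR's quasi-likelihood test, and the lowest adjusted p was 0.129. At an unadjusted p under 0.05, 1208 genes (9%) passed, 602 higher and 606 lower at 24 weeks. DESeq2 called 16 genes and limma-voom 0, and these tools found 1270 and 1186 genes at an unadjusted p under 0.05. With scaling by library size alone the 1207 genes with an unadjusted p under 0.05 were split 417 higher and 790 lower, and the median over all genes was -0.03 on the log2 scale. The values of every 24-week sample lay above, or below, those of every 12-week sample in 36 genes (0.268%), 21 of them higher and 15 lower. Without the 12-week sample 7 there were 64 such genes, 0 called and a lowest adjusted p of 0.222, and without the 24-week sample 1 there were 102 such genes and 9 called. The number of genes without overlap cannot fall when a sample is left out, so its rise alone says nothing of that sample.

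A p over the threshold does not show equal levels, so the interval of each fold change was examined. For 10477 genes (78.1%) the 95% interval of the log2 fold change lay between -1 and 1, that is within 2-fold, and for 8200 genes (61.1%) it lay within 1.5-fold. The median size of the log2 fold change was 0.13. Precision followed the level of the gene. Among the 5178 genes with a mean of at most 10 CPM the interval stayed within 2-fold in 49.4%. It did so in 6141 of the 6419 genes from 10 to 100 CPM (95.7%) and in 1778 of the 1824 genes over 100 CPM (97.5%). Fold changes of more than 2-fold were estimated for 406 genes at up to 10 CPM, 24 genes from 10 to 100 CPM and 2 genes over 100 CPM.

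**Figure D2:**
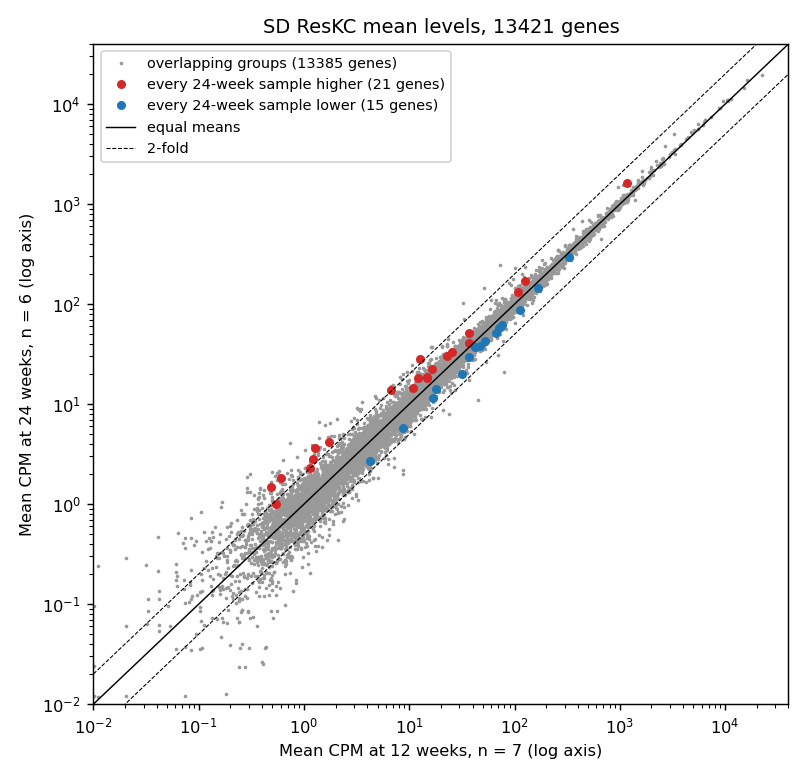
Each point is a gene, with its mean TMM-scaled CPM at 12 weeks (n = 7) on the horizontal axis and at 24 weeks (n = 6) on the vertical axis, both on log scales, lines for equal means and 2-fold, and colours for the 21 higher and 15 lower genes without overlap; genes below the axis limits are not drawn. Genes over 100 CPM lie along the diagonal, and the wide scatter is among the genes with a mean of at most 10 CPM.

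The profiles of single samples also showed how near the times were. The median absolute difference in log2 CPM over genes was 0.251 between samples at 12 weeks (median of 21 pairs), 0.272 between samples at 24 weeks (15 pairs) and 0.273 between a 12-week and a 24-week sample (42 pairs). For scale, SD ResKCs lay 0.309 from ResKCs of WD-fed mice at 24 weeks and 0.423 from CLEC4F- macs. A sample at 12 weeks was therefore about as far from one at 24 weeks as 2 samples at 24 weeks were from each other.

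No gene of the ResKC identity list was called between the times. Of 16 listed genes, all passed the filter, 1 had an unadjusted p under 0.05, against 9% of all genes, and 14 had an interval within 2-fold, against 78.1% of all genes and 97.5% of those over 100 CPM. These shares over all genes also stand beside the counts of the lists that follow, which come from the fit over 6 groups unless stated. The median log2 fold change was 0.07 against 0.00 for all genes. They held 4.74% ± 0.19 of all counts at 12 weeks (SD, n = 7) and 4.84% ± 0.12 at 24 weeks (n = 6). Cd5l, with 7828 to 10092 CPM at 12 weeks and 8295 to 10398 CPM at 24 weeks, had a log2 fold change of 0.06. Vsig4, the receptor for C3b-coated particles, had 3754 ± 168 and 3934 ± 180 CPM, and Adgre1, which encodes F4/80, had 3293 ± 355 and 3450 ± 527 CPM. The exception at an unadjusted p was Cd207, the lectin langerin, with 275 to 651 CPM at 12 weeks and 348 to 1247 CPM at 24 weeks. Its groups overlapped, the log2 fold change was 0.64 and the adjusted p was 0.509 in edgeR's quasi-likelihood test. Without the 24-week sample 2 the value was 0.37.

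In the fit over 6 groups, none of the 15 transcription factors of Kupffer cells reached an unadjusted p under 0.05. An interval within 2-fold was found for 14, and the median log2 fold change was 0.04. Nr1h3, the gene of LXRα, stood at 848 ± 43.7 CPM (SD, n = 7) at 12 weeks and 936 ± 69.9 CPM (n = 6) at 24 weeks, a log2 fold change of 0.14. In the 13 SD samples alone, Nr1h3 was the 1 factor with an unadjusted p under 0.05. Its interval there ran from 0.01 to 0.26, with an adjusted p of 0.545 in edgeR's quasi-likelihood test. Spic, which drives the programme for heme iron recycling, had 163 ± 28.6 and 161 ± 27.1 CPM. Spi1, the gene of the myeloid factor PU.1, had 765 ± 36.6 and 712 ± 39.4 CPM. The factor with an interval beyond 2-fold was Id1, with 23.3 to 140 CPM at 12 weeks and 46.9 to 156 CPM at 24 weeks. Its relative Id3 varied less, from 593 to 1400 CPM and from 726 to 1297 CPM. Of the 16 genes for receptors and targets of niche signals, 14 had an interval within 2-fold and 1, the receptor gene Notch1, was higher in mean at an unadjusted p under 0.05, with a log2 fold change of 0.46.

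**Figure D3:**
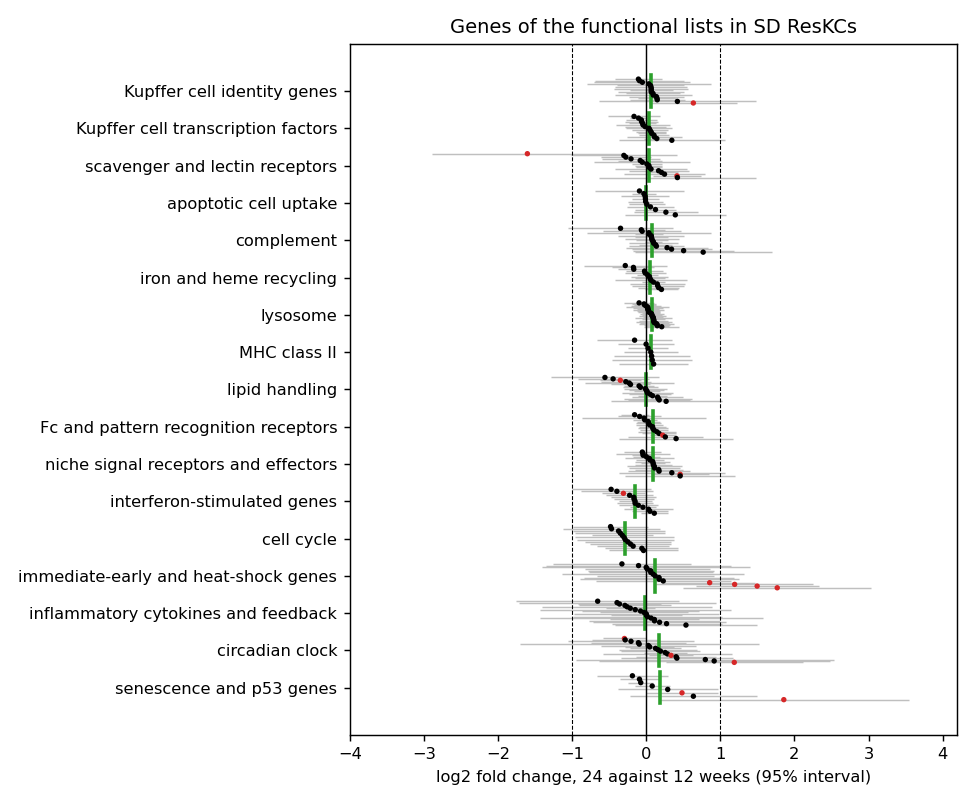
For each of the 17 functional gene lists, the horizontal axis gives the log2 fold change of SD ResKCs at 24 against 12 weeks, with a point for each gene that passed the filter, red at an unadjusted p under 0.05, a grey line for its 95% interval and a green bar for the list's median; dashed lines mark 2-fold. The intervals of the lysosome, iron and MHC class II lists lie within 2-fold, and the immediate-early, cytokine and clock lists are the most spread.

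Every measured gene of the lysosome, iron and MHC class II lists had an interval within 2-fold, as had 95.7% of all genes from 10 to 100 CPM and 97.5% of those above. All 24 lysosomal genes had an interval within 2-fold, and the median log2 fold change was 0.08, and they held 5.77% ± 0.24 and 5.84% ± 0.40 of all counts. Lamp1, the main membrane glycoprotein of lysosomes, had 2335 ± 108 CPM (SD, n = 7) and 2370 ± 155 CPM (n = 6). Psap, the precursor of the saposins that help to degrade sphingolipids, had 5523 ± 223 and 5631 ± 784 CPM. All 14 iron and heme genes also had an interval within 2-fold, with a median of 0.05. The 2 ferritin subunits held 0.857% ± 0.0349 and 0.938% ± 0.0812 of all counts, with Fth1 at 5508 ± 446 and 6351 ± 853 CPM. Hmox1, the enzyme that opens the heme ring, had 2233 ± 145 and 2485 ± 461 CPM. In the fit over 6 groups neither list had a gene with an unadjusted p under 0.05, against 9% of all genes. In the fit of the 13 SD samples alone, 1 gene of each list had one, against 1165 of all 13421 genes. These were Fth1, with an interval from 0.02 to 0.37, and Atp6v0d1, from 0.003 to 0.28. Their adjusted p was 0.534 and 0.575 in edgeR's quasi-likelihood test.

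Complement and uptake genes were near the background as well. The 3 C1q genes held 1.80% ± 0.0976 and 1.86% ± 0.0630 of all counts, and the ratio of C1qb to C1qa counts per sample was 1.44 ± 0.0331 and 1.37 ± 0.112. Of 17 complement genes, 0 had an unadjusted p under 0.05 and 14 had an interval within 2-fold in the fit over 6 groups. In the 13 SD samples alone, 1 had such a p and 16 had such an interval. C4b, which encodes complement C4 and was chosen after its values were seen, was the 1 complement gene whose groups did not overlap. Its values were 862 to 1413 CPM with a median of 1155 CPM at 12 weeks and 1465 to 1958 CPM with a median of 1618 CPM at 24 weeks. In the fit over 6 groups its log2 fold change was 0.50 with an adjusted p of 0.693, and in the 13 SD samples alone the interval ran from 0.25 to 0.74 with an adjusted p of 0.356, both in edgeR's quasi-likelihood test. C4a is a near-identical copy, and how reads shared by the 2 genes were counted is not given in the sources used here, so the value is uncertain.

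No receptor gene for dying cells or microbes was called. Of 11 genes for the uptake of apoptotic cells, 10 passed the filter (Tyro3 did not), 0 had an unadjusted p under 0.05 and 9 had an interval within 2-fold. Axl, a receptor for phosphatidylserine-bound GAS6, had 2560 ± 192 CPM (SD, n = 7) and 2541 ± 454 CPM (n = 6), and the related Mertk had 684 ± 40.3 and 688 ± 70.4 CPM. Of 15 scavenger receptor and lectin genes, 12 had an interval within 2-fold, 1 was higher and 1 lower at an unadjusted p under 0.05. The higher was Clec4n, the lectin dectin-2, with a log2 fold change of 0.42. The lower was Cd209f, a lectin of the DC-SIGN family, with 7.09 to 55.5 CPM at 12 weeks and 2.86 to 16.8 CPM at 24 weeks, a log2 fold change of -1.60 and an adjusted p of 0.447 in edgeR's quasi-likelihood test. Mrc1, the mannose receptor, had 1651 ± 129 and 1561 ± 156 CPM. Of 15 Fc receptor and pattern recognition genes, 14 had an interval within 2-fold, and Tlr13, a sensor of bacterial ribosomal RNA, was higher at an unadjusted p under 0.05, with a log2 fold change of 0.22. The Fc receptor gene Fcgr1, whose product CD64 is used to gate macs, had 315 ± 14.2 and 325 ± 18.6 CPM.

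MHC class II genes varied between samples more than between times. Their share of all counts was 2.03% ± 0.63 (SD, n = 7) at 12 weeks and 2.05% ± 0.54 (n = 6) at 24 weeks, and all 7 had an interval within 2-fold. H2-Ab1 ran from 2720 to 8002 CPM, with a median of 4327 CPM, at 12 weeks and from 2529 to 7467 CPM, with a median of 4707 CPM, at 24 weeks. Of 18 lipid handling genes, 16 had an interval within 2-fold and 1 was lower at an unadjusted p under 0.05. That gene was Lpl, the lipoprotein lipase, with 1185 to 2018 CPM at 12 weeks and 776 to 1345 CPM at 24 weeks, groups that overlapped, a log2 fold change of -0.35, or -0.24 without the 12-week sample 7, and an adjusted p of 0.447 in edgeR's quasi-likelihood test. With Apoe, the list held 3.04% ± 0.29 of all counts at 12 weeks and 2.64% ± 0.32 at 24 weeks.

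Among the 17 functional lists, the score of the immediate-early and heat-shock list had the widest spread inside a time point, with an SD of 1.03 at 12 weeks and 0.899 at 24 weeks. Immediate-early genes are those which cells induce within minutes of a stimulus, cell dissociation included. Fos, a subunit of the factor AP-1, ran from 312 to 3577 CPM with a median of 1703 CPM at 12 weeks and from 750 to 3525 CPM with a median of 2391 CPM at 24 weeks. Egr1 ran from 69.7 to 1795 CPM and from 119 to 1572 CPM. These ranges overlapped almost whole, so that samples of 1 time differed far more than the means of the 2 times. At 12 weeks the list scores were 0.90, 0.75 and 0.45 in samples 1 to 3, of the first name form. In samples 4 to 7, of the second form, they were -0.78, -0.14, -0.82 and -1.97. At 24 weeks, where all samples had the first form, the scores ran from -1.27 to 1.30. The part of the name form in this spread was not tested. The 15 immediate-early and heat-shock genes held 0.911% ± 0.583 and 0.998% ± 0.439 of all counts. Only 4 of them had an interval within 2-fold, 4 were higher at an unadjusted p under 0.05 and 0 were called. The median log2 fold change of the list was 0.12, or -0.03 without the 12-week sample 7. With the 12-week samples of the first name form alone it was -0.58.

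Inflammatory cytokine genes and their feedback regulators moved over a similar range. All 18 passed the filter, 0 had an unadjusted p under 0.05 and 9 had an interval within 2-fold. The median log2 fold change was -0.01, or -0.17 without the 12-week sample 7. With the 12-week samples of the first name form alone it was -0.60. Il1b ran from 144 to 1768 CPM with a median of 518 CPM at 12 weeks and from 415 to 1172 CPM with a median of 783 CPM at 24 weeks. Tnf ran from 7.37 to 159 CPM and from 13.8 to 105 CPM, and Cxcl2 from 7.02 to 303 CPM and from 20.8 to 225 CPM. The highest list scores at 12 weeks were those of samples 1 and 2 (1.08 and 1.05) and the lowest that of sample 7 (-1.55), whose immediate-early score was also the lowest. At 24 weeks, sample 1 had the lowest score in both lists, -0.91 and -1.27. The part of tissue handling in these values was not tested.

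**Figure D4:**
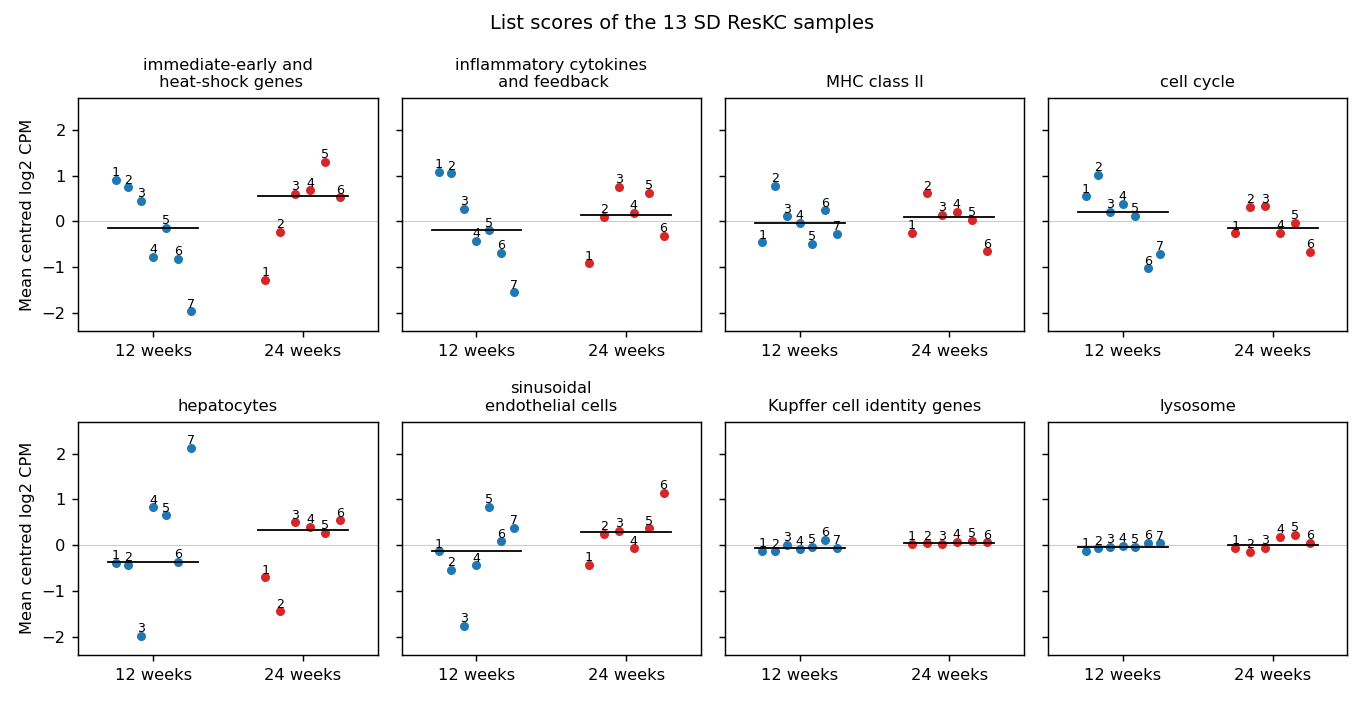
For each sample at 12 weeks (n = 7) and 24 weeks (n = 6), numbered points give the score of 8 gene lists on the vertical axis, the mean over the list of log2 CPM centred per gene, and lines give medians. Scores of identity and lysosome genes lie near 0 in every sample, and immediate-early and heat-shock scores run from -1.97 to 1.30.

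The 4 genes higher at an unadjusted p in this list were all heat-shock genes, with their high values in the 24-week samples 4 to 6. Heat-shock proteins are chaperones whose transcription factor HSF1 binds inverted repeats of the unit GAA. Hsph1, an HSP110 chaperone, had 29.3 to 71.9 CPM with a median of 52.0 CPM at 12 weeks and 52.2 to 347 CPM with a median of 86.4 CPM at 24 weeks. The log2 fold change was 1.5, or 1.03 without the 24-week sample 6, and the adjusted p was 0.235 in edgeR's quasi-likelihood test. Hspa1b, an inducible HSP70 gene, had 22.8 to 156 CPM with a median of 68.3 CPM and 50.3 to 516 CPM with a median of 177 CPM, a log2 fold change of 1.77 with an adjusted p of 0.379. Its near-identical copy Hspa1a had 25.7 to 181 CPM and 51.6 to 442 CPM, a log2 fold change of 1.19 with an adjusted p of 0.485, and reads of the 2 genes may have been split between them. The HSP40 gene Dnajb1 had 41.3 to 113 CPM and 57.5 to 312 CPM, a log2 fold change of 0.86 with an adjusted p of 0.379. Groups overlapped for all 4 genes. Without the 24-week sample 5, the highest for the last 3 genes, the log2 fold change was 0.91 for Hspa1a, 1.41 for Hspa1b and 0.56 for Dnajb1.

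The promoters of 3 chaperone genes are shown because their highest 24-week values lay in the same samples, 4 to 6, and the heat-shock repeat can be read in them. At 12 weeks the order of the samples differed between these genes. Each sequence runs from 250 bases before to 50 bases after the RefSeq start on GRCm38.p6, 5′ to 3′ on the strand of the gene, with matches to GAANNTTC or TTCNNGAA, which read the same on both strands and may overlap, in capitals. Hspa1a is at chr17:34972107-34972406 on the minus strand, Hsph1 at chr5:149636287-149636586 on the minus strand, and Hspb1, the small heat-shock protein HSP27, at chr5:135887669-135887968 on the plus strand.
Hspa1a: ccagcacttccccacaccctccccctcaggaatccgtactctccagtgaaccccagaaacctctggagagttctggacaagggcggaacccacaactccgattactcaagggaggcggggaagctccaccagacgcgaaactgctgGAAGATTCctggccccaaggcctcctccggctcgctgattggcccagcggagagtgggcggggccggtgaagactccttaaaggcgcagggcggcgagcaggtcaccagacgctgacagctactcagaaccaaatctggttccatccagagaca
Hsph1: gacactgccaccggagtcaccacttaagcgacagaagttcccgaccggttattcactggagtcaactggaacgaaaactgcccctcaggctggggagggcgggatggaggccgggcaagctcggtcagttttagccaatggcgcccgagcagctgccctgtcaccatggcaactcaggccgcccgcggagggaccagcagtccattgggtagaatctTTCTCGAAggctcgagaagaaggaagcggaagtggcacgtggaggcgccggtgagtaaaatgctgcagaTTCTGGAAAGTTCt
Hspb1: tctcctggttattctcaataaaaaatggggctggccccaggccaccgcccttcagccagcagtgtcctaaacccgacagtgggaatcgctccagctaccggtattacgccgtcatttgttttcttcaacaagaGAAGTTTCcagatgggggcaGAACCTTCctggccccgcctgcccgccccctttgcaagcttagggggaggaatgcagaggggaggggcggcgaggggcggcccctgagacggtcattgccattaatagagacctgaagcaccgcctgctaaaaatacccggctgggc
The repeat was present 1 time in Hspa1a, 3 times in Hsph1, where 2 matches overlap, and 2 times in Hspb1. The Hspa1b promoter differs from that of Hspa1a in 4 of 300 bases and also has 1 match, and the Dnajb1 promoter has 0. Of the 27025 promoters in the table, 4073 (15.1%) hold the repeat, so a match by these letters is common and describes the sequence only.

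No gene of the circadian clock, cell cycle, interferon or senescence lists was called. Of 18 clock genes, 2 were higher and 1 lower at an unadjusted p under 0.05, against 9% of all genes, and 11 had an interval within 2-fold, against 78.1%. The lowest p was that of Per1, a repressor of the clock, with 4.68 to 23.1 CPM at 12 weeks and 9.34 to 64.6 CPM at 24 weeks, a log2 fold change of 1.19 and an adjusted p of 0.422 in edgeR's quasi-likelihood test. The log2 fold change of Per1 was 0.80 without the 24-week sample 5 and 0.55 with the 12-week samples of the first name form alone. The hour at which mice were killed is not given in the sources used here. Cell cycle genes were low at both times, with 0.0262% and 0.0220% of all counts. Mki67, the marker of cycling cells, had 11.4 to 40.4 CPM and 17.3 to 29.8 CPM, and Top2a, which untangles replicated DNA, had 9.11 to 59.2 CPM and 18.2 to 40.8 CPM. All 12 cell cycle genes had a log2 fold change below 0, yet 0 reached an unadjusted p under 0.05. Their median was -0.29, or -0.05 without the 12-week sample 2. With the 12-week samples of the first name form alone it was -0.74.

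Among 13 interferon-stimulated genes the median log2 fold change was -0.15 and 1, Ifit2, was lower at an unadjusted p under 0.05, with a log2 fold change of -0.31 and an adjusted p of 0.523 in edgeR's quasi-likelihood test. Of 9 senescence genes 8 passed the filter, with Cdkn2a below it. A higher mean at an unadjusted p under 0.05 was found for 2 of them. In the cyclin-dependent kinase inhibitor gene Cdkn1a the log2 fold change was 0.48, or 0.31 without the 24-week sample 5. Interferon and senescence genes with an interval within 2-fold numbered 12 of 13 and 6 of 8. In the 13 SD samples alone they numbered 12 and 5.

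The genes with the lowest p among those whose groups did not overlap belonged to no single list. Havcr2, which encodes the receptor TIM3, had 9.93 to 19.2 CPM with a median of 11.8 CPM at 12 weeks and 21.5 to 37.8 CPM with a median of 26.7 CPM at 24 weeks. The mean went from 12.8 ± 3.24 CPM (SD, n = 7) to 28.2 ± 5.75 CPM (n = 6), a log2 fold change of 1.14 with a standard error of 0.24 and an adjusted p of 0.129 in edgeR's quasi-likelihood test. Every 24-week sample was above every 12-week sample. Arhgef7, an exchange factor for RAC and CDC42, had 9.71 to 14.5 CPM and 14.7 to 24.1 CPM, and its log2 fold change was 0.59. Efemp1, an extracellular matrix protein of the fibulin family, had 0.356 to 2.15 CPM and 2.67 to 4.91 CPM, with a log2 fold change of 1.51. Wnk1, a kinase that regulates ion transport, had 105 to 144 CPM and 147 to 196 CPM, with a log2 fold change of 0.45. The gene model Gm15542, the metalloreductase gene Steap4, the matrix proteoglycan gene Lum and the G protein gene Gna11 made up the other higher genes, with log2 fold changes of 1.22, 1.02, 1.28 and 0.45. Efemp1 and Lum are genes of stromal cells.

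On the lower side, Gcc2, a golgin of the trans-Golgi network, had 26.3 to 41.0 CPM with a median of 31.0 CPM at 12 weeks and 13.5 to 25.4 CPM with a median of 20.2 CPM at 24 weeks. Its log2 fold change was -0.65 with a standard error of 0.13 and an adjusted p of 0.129 in edgeR's quasi-likelihood test. Tfeb, the transcription factor of lysosome biogenesis, had 67.7 to 78.1 CPM and 47.9 to 62.6 CPM, with a log2 fold change of -0.32. The lysosomal genes themselves, as given above, had a median of 0.08. Lima1, which bundles actin, had 107 to 126 CPM and 66.6 to 96.6 CPM, with a log2 fold change of -0.38. The lower genes Sfxn1, a mitochondrial serine carrier, Dnajc21, Dhx36, Zfp106 and Faf1 had log2 fold changes of -0.30, -0.55, -0.32, -0.32 and -0.29. The share of all genes without overlap was 0.268%, and none of these 16 genes passed the adjusted threshold.

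**Figure D5:**
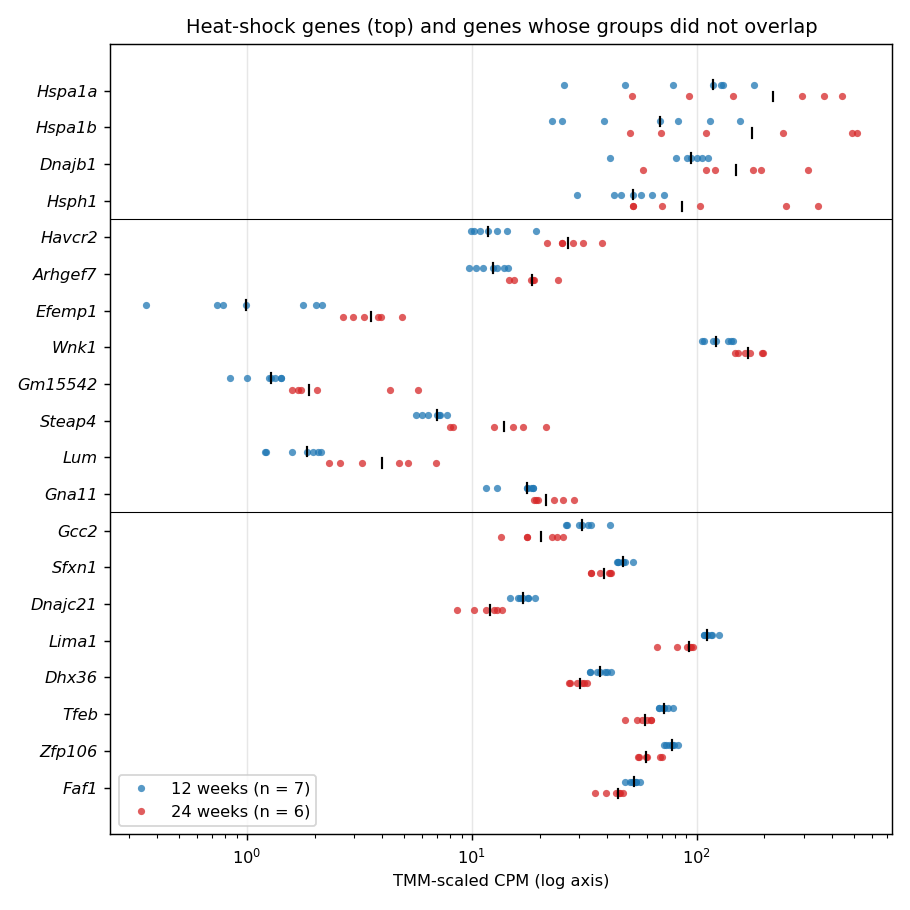
Each row is a gene, 4 heat-shock genes at the top and then the 8 higher and 8 lower genes without overlap, with TMM-scaled CPM on a log axis, a point for each sample at 12 weeks (n = 7) and 24 weeks (n = 6) and a bar for the median. Havcr2 and Gcc2 do not overlap between the times, and the 24-week points of Hspa1b reach 516 CPM.

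Other settings called a few genes. DESeq2 gave its lowest adjusted p to Gcc2 (0.00784), Havcr2 (0.00823), Crem (0.00823), Dynll1 (0.0169) and Ppig (0.0371). Crem, a cAMP-responsive regulator of transcription, had 13.5 to 22.0 CPM with a median of 16 CPM at 12 weeks and 16.1 to 84.5 CPM with a median of 24.8 CPM at 24 weeks, and the ranges overlapped. Its log2 fold change was 1.18, or 0.76 without the 24-week sample 5. Dynll1, a dynein light chain, had 94.8 to 132 CPM and 132 to 166 CPM, with a log2 fold change of 0.40, and Ppig, a nuclear cyclophilin, had a log2 fold change of -0.37. Without the 24-week sample 1, edgeR's quasi-likelihood test called 9 genes with adjusted p between 0.0353 and 0.0470. These were Crem, Gcc2, Havcr2, Ppig, Dhx58, Thbd, Tshz2, Hspb1 and Dnajc8. Without the 24-week sample 2 it called Gcc2 alone, at an adjusted p of 0.0464.

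Thbd, the anticoagulant receptor thrombomodulin, had 18.3 to 44.6 CPM with a median of 32.8 CPM at 12 weeks and 25.8 to 291 CPM with a median of 76.4 CPM at 24 weeks. Its log2 fold change was 1.68, and 1.02 without the 24-week sample 5. Hspb1 had 0.369 to 3.30 CPM and 0.842 to 15.7 CPM, a log2 fold change of 1.88. Both gene ranges overlapped between the times. Tshz2, a zinc finger factor, had a log2 fold change of 1.54. The splicing cofactor gene Dnajc8 and Dhx58, which encodes the RNA sensor LGP2, had log2 fold changes of -0.38 and -0.36. The high 24-week values of Crem, Thbd and Hsph1 fell in samples 4 to 6, the samples with the high heat-shock values.

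The sorts held low and unequal amounts of RNA typical of other liver cells. In bulk samples, fewer cells of a type and less RNA per cell cannot be told apart. All 10 hepatocyte markers were detected, and their summed level ran from 332 CPM to 3676 CPM, the latter in sample 7, at 12 weeks and from 412 to 1360 CPM at 24 weeks, and the median log2 fold change was -0.42. Without sample 7 this median was 0.05, and with the 12-week samples of the first name form alone it was 0.85, so its direction rests on the 12-week samples used. All 7 sinusoidal endothelial markers summed to 419 to 1566 CPM and to 714 to 1757 CPM, with a median of 0.41, or 1.09 with the first name form alone. The 7 stellate cell markers summed to 44.0 to 90.1 CPM and to 69.6 to 189 CPM, with a median of 0.66, or 0.09 with the first name form alone, and 3 of them had a higher mean at an unadjusted p under 0.05, against 9% of all genes. Dcn, a proteoglycan of stellate cells and fibroblasts, had 21.5 to 45.8 CPM and 41.3 to 126 CPM, a log2 fold change of 1.10 with an adjusted p of 0.316 in edgeR's quasi-likelihood test. The stellate gene Reln had 1.2 to 4.91 CPM and 3.30 to 17.0 CPM, with a log2 fold change of 1.57. Over the 7 stellate markers the log2 fold change ran from -0.23 to 1.57. The 3 stellate markers with an unadjusted p under 0.05 were Dcn, Reln and Colec11. With the first name form alone their log2 fold changes were 0.80, 1.47 and 0.54, while the median of all 7 was 0.09. Efemp1 and Lum had log2 fold changes of 1.24 and 1.16 with the first name form alone. The part of stromal RNA in the values of Efemp1 and Lum was not tested.

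Markers of blood cells and cholangiocytes summed to lower levels than those of hepatocytes and sinusoidal endothelial cells. Erythroid markers, all 5 of which had a higher fold change at 24 weeks, summed to 3.03 to 88.4 CPM and to 34.5 to 105 CPM. B cell markers, 5 of 6 of which passed the filter, summed to 8.62 to 111 CPM and to 9.04 to 81.5 CPM. Monocyte markers, 5 of 5 passing, summed to 111 to 187 CPM and to 105 to 221 CPM, mostly from Plac8. Dendritic cell markers, 5 of 6 passing, summed to 11.4 to 21.5 CPM and to 9.92 to 18.3 CPM. T and NK cell markers, 3 of 7 passing, summed to 1.95 to 11.7 CPM and to 2.7 to 6.28 CPM. Neutrophil markers, 2 of 6 passing, summed to 0.404 to 1.64 CPM and to 0.783 to 3.57 CPM, and Ly6g, Ngp and Camp were at 0 counts in all 13 samples. Cholangiocyte markers, 1 of 4 passing, summed to 0.415 to 1.52 CPM and to 0.285 to 2.10 CPM. At an unadjusted p under 0.05, 1 marker each of B cells, T and NK cells, monocytes and dendritic cells was lower and 2 neutrophil markers were higher at 24 weeks, against 9% of all genes. The monocyte marker was Chil3, which had counts in the 12-week sample 7 alone, at 1.13 CPM. The sums of the 2 times overlapped for every one of these cell types.

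Markers of lipid-associated macs were scarce in steady-state ResKCs, with summed levels of 29.2 to 110 CPM at 12 weeks and 33.2 to 87.6 CPM at 24 weeks. The most uneven of them was Gpnmb, a lysosomal glycoprotein of lipid-laden macs, with 0.356 to 36.5 CPM and a median of 2.41 CPM at 12 weeks, where sample 7 was the highest, and 0.491 to 3.75 CPM at 24 weeks. Its log2 fold change was -2.03, or -0.94 without sample 7, and changed sign with the 12-week samples of the first name form alone, at 0.38.

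Over single genes, the largest spread within a time was mostly in transcripts of other cells. Igha, the heavy chain of IgA, ran from 0 to 66.8 CPM at 12 weeks and from 0 to 46.6 CPM at 24 weeks, with an SD of 3.71 in log2 CPM. The next were Mup17, Mup7, Gm15590, Cxcl1, Mup11, Pck1, Bhmt, Nat8f2 and Cyp3a11, most of them hepatocyte genes, and the Mup genes are near-identical copies whose counts are uncertain. Among the steadiest genes above 10 CPM were Dnajc14, Tpm3, Rab7, Grb2, Map2k1, Atp6v1h, Actr3, Ybx1 and Cdc37. Dnajc14, a cochaperone of the endoplasmic reticulum, had the smallest SD, 0.041 in log2 CPM, with 98.7 to 106 CPM at 12 weeks and 101 to 108 CPM at 24 weeks. Rab7, the GTPase of late endosomes, ran from 266 to 290 CPM and from 259 to 279 CPM.

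The same time step in ResKCs of WD-fed mice, which shares no sample with the SD comparison, gave more calls. On the WD, 438 genes (3.26%) passed an adjusted p of 0.05 in edgeR's quasi-likelihood test, 206 higher and 232 lower at 24 weeks, and 235 with the replicate number as a block. Of these 438 genes, 57 had an unadjusted p under 0.05 on the SD, against 1208 of all 13421 genes (9%). An SD interval within 2-fold was found for 379 of the 438, against 10477 of all genes (78.1%). The difference between the 2 time effects, tested itself, was called in 38 genes (0.283%), and in 4 with the block. Among WD ResKC samples, 3 of 6 at 24 weeks and 0 of 5 at 12 weeks carried the second alignment name form. With the name form as a covariate, an alternative chosen after the data were seen, 319 genes were called on the WD and 87 for the difference, 253 and 23 of them also called without it.

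Lair1, an inhibitory receptor for collagen, fell on the WD and had a fold change near 0 on the SD. It had 356 ± 26.7 CPM (SD, n = 7) and 367 ± 50.4 CPM (n = 6) on the SD, and 409 ± 26.7 CPM (n = 5) and 268 ± 20.2 CPM (n = 6) on the WD, with log2 fold changes of 0.04 and -0.61. The difference was 0.65 with a standard error of 0.10 and an adjusted p of 0.00424 in edgeR's quasi-likelihood test. Wfdc17, a small secreted protein of macs, had 2204 ± 202 and 2711 ± 493 CPM on the SD, and 2665 ± 435 and 1479 ± 280 CPM on the WD. Its log2 fold changes were 0.30 and -0.85 and their difference was 1.15, with an adjusted p of 0.00934. The differences of Lst1, Ndufa1, a subunit of respiratory complex I, and Gclc, the rate-limiting enzyme of glutathione synthesis, were 0.79, 0.65 and -0.64. Their log2 fold changes were 0.15, 0.34 and -0.09 on the SD and -0.64, -0.32 and 0.55 on the WD. In these 5 genes, apart from Ndufa1, the fold change of larger size was that on the WD. Of the 38 genes called for the difference, 33 were also called for time on the WD, against 3.26% of all genes. An unadjusted p under 0.05 on the SD was found for 23 of the 38, against 9% of all genes. The 38 genes were chosen by the difference itself, so these shares are not a separate test.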

How the data were processed

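Sorted ResKCs of SD-fed mice were profiled by bulk RNA-seq with a TruSeq kit on single reads. Per the submitters' processing notes and the methods of the study, the authors checked reads with FastQC 0.11.9, mapped them to mm10 with HISAT2 2.2.0, used SAMtools 1.10 and counted them with featureCounts 2.0.0. The authors deposited raw counts, 1 value for each gene symbol and sample, with no scaling applied. The strand setting and the treatment of reads with several positions are not given in the sources used here, which makes copies and overlapping genes uncertain.

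From these counts, genes over 1 CPM in at least 5 of 35 samples were kept, 13421 of 54735 symbols. TMM factors and edgeR 4.0.16 (R 4.3.3) quasi-likelihood tests were applied in 1 fit of 6 group means over all 35 samples, with Benjamini-Hochberg adjustment over all genes and a limit of 0.05. All tests were two-sided. Log2 CPM used a prior count of 2. Exon lengths, from GENCODE M21, were found for 13388 genes. Alternatives were DESeq2 1.42.0, limma-voom 3.58.1, no filter, other scalings, subsets, covariates, a replicate block and each sample left out. Precision is limited by counting at 3 counts, about 0.202 to 0.228 CPM.

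Named genes were the 25 highest by CPM and per kb, the 8 higher and 8 lower genes of lowest p without overlap, genes called under any alternative (the 5 of lowest p where there were more than 10), the 10 most and 10 least variable, up to 6 genes of highest mean per list (lowest p for the clock, immediate-early and cytokine lists), and genes called for the difference of time effects. The members, the 17 functional and 11 marker lists and these rules were chosen with earlier results of these data known. A few genes that these rules name are not reported here.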

Additional observations from a re-analysis of the deposited data

Results flagged for a closer look

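In 11 of 240 values compared within a time (4.58%), the highest or lowest sample lay far from the others by Dixon's 95% limit, and chance alone gives about 1 in 20. At 24 weeks these were the log2 CPM of Map2k1 in sample 2 (6.62), the complement score of sample 6 (0.29), the B cell score of sample 3 (0.53), the erythroid score of sample 2 (-0.78) and the 17953 genes detected in sample 2. At 12 weeks they were the log2 CPM of Tlr13 in sample 3 (7.46) and of Dnajb1 (5.37) and Cdkn1a (3.69) in sample 7, the stellate score of sample 1 (0.57), the cholangiocyte score of sample 5 (-1.88) and the erythroid score of sample 6 (-3.69). The cholangiocyte score rests on 1 gene, Sox9, which was at 0 CPM in the 12-week sample 5. The summed cholangiocyte markers of that sample, 1.52 CPM, were the highest at 12 weeks, so the score does not show less cholangiocyte RNA. Dnajb1 and Cdkn1a were low in the 12-week sample that also had the lowest immediate-early score.

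The time effect on the SD differed from that on the WD, by the test of the difference in edgeR's quasi-likelihood model, in 38 genes. The SD minus WD differences were 0.65 for Lair1, 1.15 for Wfdc17, 0.79 for Lst1, 0.65 for Ndufa1 and -0.64 for Gclc.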

How the results depend on the processing

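Limits of these results are the unknown meaning of the 2 alignment name forms, of which the second was present among SD samples at 12 weeks only and among WD ResKC samples at 24 weeks only, and the low counts of genes at up to 10 CPM. The number of genes called on the SD was 16 with DESeq2 and ran from 0 to 9 when 1 sample was left out, highest without the 24-week sample 1. With an unadjusted p under 0.05 it was 2368 without a filter and from 947 to 1391 when 1 sample was left out. Genes with an interval within 2-fold ran from 10257 to 10474. Genes without overlap, whose number cannot fall when a sample is left out, ran from 47 to 102. WD calls ran from 126 to 489 when 1 sample was left out, and calls of the difference were 184 with DESeq2, 87 with the name form as a covariate, which was chosen after the data were seen, and ran from 8 to 98. Among genes with an unadjusted p under 0.05, the name form as a covariate gave 826 higher and 647 lower, and the 12-week samples of the first form alone gave 750 and 579. With that first form alone the fold change of Gpnmb was 0.38, and the list medians were 0.85 for hepatocytes, 1.09 for sinusoidal endothelial cells and 0.09 for stellate cells. The medians of the immediate-early and heat-shock, cytokine and cell cycle lists were then -0.58, -0.60 and -0.74. The causes were not tested.

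The replicate numbers did not pair the samples: same-numbered samples correlated at -0.13 to 0.20 in their deviations, and 2 of 6 correlated best with their own number. The replicate block gave 0 calls on the SD, 1136 genes with an unadjusted p under 0.05, 10131 intervals within 2-fold, 235 WD calls and 4 calls of the difference. A fit of the 13 SD samples alone gave 0 calls with a lowest adjusted p of 0.0658 in edgeR's quasi-likelihood test, 1165 genes having an unadjusted p under 0.05.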
